A study of Mus musculus with 12 samples.

Results

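CD8+ NKT-like cells, grown in vitro from mouse spleen CD8+ T cells, were set against fresh naive CD8+ T cells to read which genes were higher or lower after the culture. The comparison took 7 of the 12 arrays of the study, chosen by their labels: all 5 arrays of CD8+ NKT-like cultures and both arrays of naive CD8+ T cells. It covered all 45037 probe sets that are not Affymetrix controls, of 45101 on the array. The NKT-like cells had been stimulated with beads that carry anti-CD3 and anti-CD28 in medium with a high dose of IL-2, and the beads were taken out at the end. The naive cells had no culture and no stimulation. Cells of both groups came from spleens of female C57BL/6 mice labelled as 8 to 12 weeks old, with no engineered allele named in either group. CD8+ cells were enriched by magnetic negative selection, and no sort on a marker of naive cells is described. The study calls the 5 cultures independent, and whether the 2 naive samples came from separate mice is not given in the sources read. P-values therefore measure only the spread between these samples, which may in part be technical. Cultured CD4+ T cells grown by the same protocol (n = 3) and CD8+ T cells activated with soluble anti-CD3 and anti-CD28 (n = 2) shared the fit and are set beside the NKT-like cells at the end.

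Naive CD8+ T cells circulate in a resting state held by factors such as Klf2 and Lef1, with homing receptors that take them through lymph nodes and IL-7 receptor signals that keep them alive. Stimulation through the T cell receptor and CD28 starts growth, division and a change of metabolism, and IL-2 drives CD8+ cells towards killers that store perforin and granzymes in secretory granules. NKT-like CD8+ cells are T cells that also carry receptors of NK cells.

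Levels are log2 signals as normalized by RMA, which corrects background, scales the arrays to each other and summarizes the probes of each probe set. They ran from 3.18 to 14.55 over all arrays, with array medians of 6.25 to 6.42 in the 7 arrays compared. RMA gives no call of presence, so a level near the lower end includes background and the fold of such a gene depends on it. A gene is represented by 1 probe set, the one with the highest mean level, and its fold is the antilog of the difference between group means. Levels of different genes come from different probes and are not compared with each other. A gene was called higher or lower when its Storey q-value from limma, computed over all 45037 probe sets, was 0.01 or less. In bulk RNA, fewer cells that express a gene and less of its RNA per cell cannot be told apart.

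The labelled cell type was read from Cd3e, Cd8a and Cd4. Cd3e, a chain of the T cell receptor complex, measured 10.77 ± 0.33 in the NKT-like cultures (SD, n = 5) and 10.77 and 10.60 in naive replicates 1 and 2 (q = 0.309). Cd8a measured 10.91 ± 0.65 in the cultures and 11.72 and 11.06 in the naive samples (q = 0.157). Cd4 stood at 6.76 to 7.08 in the cultures and at 7.19 and 7.09 in the naive samples. Other chains of the complex were lower in naive replicate 2 than in naive replicate 1. They were at 11.81 against 12.49 for Cd3d, 10.59 against 11.43 for Cd3g and 9.23 against 10.38 for Cd247. With 2 naive samples, a q-value above the threshold does not show equal levels.

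The naive samples carried more signal of B cell, plasma cell, MHC class II and red cell precursor genes. Of 14 B cell genes 11 were lower in NKT-like cells, as were 5 of 6 plasma cell genes, 5 of 8 MHC class II genes and 13 of 17 red cell precursor genes, and no member of these lists was higher. Over all genes 6.61% were lower. Without naive replicate 1 these counts were 6, 3, 3 and 11, and without naive replicate 2 they were 7, 3, 5 and 9. The summed signal of the B cell list was 1060 to 1600 in NKT-like arrays and 8600 to 13700 in naive arrays. The plasma cell sum was 647 to 827 against 13500 to 16100, the MHC class II sum 759 to 920 against 7560 to 9120, and the red cell sum 1680 to 2680 against 10800 to 14700. Ighm alone made up 80.4 to 83.6% of the B cell sum in naive arrays, and without it that sum was 827 to 871 against 1680 to 2250. Without their leading genes Jchain, H2-Aa and Car2 the plasma cell sum was 624 to 795 against 5870 to 8210, the MHC class II sum 700 to 845 against 3080 to 5750 and the red cell sum 1400 to 2290 against 7440 to 10500. The dendritic cell sum did not overlap either but was the higher one in NKT-like arrays, at 1730 to 2460 against 1150 to 1190, and without Batf3 it was 1050 to 1330 against 1020 to 1040. The gamma delta T cell, megakaryocyte and stroma sums were lower in NKT-like arrays by less, at 392 to 461 against 574 to 649, 833 to 916 against 981 to 1000, and 665 to 792 against 820 to 891. The gamma delta list held 3 measured genes, Sox13, Il1r1 and Blk, and no T cell receptor gene. The study lists Tcrg, a T cell receptor gamma gene, as higher in NKT-like cells. The monocyte sum overlapped, at 2300 to 3030 against 2270 to 2970, but not without Cst3, at 1290 to 1460 against 1550 to 1710. The neutrophil sum overlapped too, but not without Mmp9, at 866 to 958 against 1160 to 1210, and the CD4+ sums overlapped with and without Cd4. The B cell factors Pax5 and Ebf1 were at 6.30 to 6.48 and 5.05 to 5.27 in the cultures and at 6.43 and 6.41 and 4.97 and 5.05 in naive cells. The probe sets kept for the red cell genes Hba-a1 and Alas2 were likewise low in both groups, at 5.18 to 5.36 and 5.31 to 5.59 in the cultures and at 5.41 and 5.50 and 5.38 and 5.56 in naive cells. Only 1 probe set is read per gene, so a low value does not show that the RNA of that gene was scarce. Of 7 further marker lists, those of megakaryocytes, CD4+ cells and stroma held no called gene. Among monocyte genes Fcgr3 was higher and Lyz2 and Mpeg1 lower, among neutrophil genes S100a8, Mpo and Prtn3 were lower, among dendritic cell genes Bst2 and Batf3 were higher, and of the gamma delta T cell genes Blk, also a B cell gene, was lower. With any 1 culture left out, 1 of the 3 neutrophil genes was still lower. None of the 3 kept its call without each of the 7 arrays in turn, and none was called after cyclic loess. Fcgr3 was not called without naive replicate 1, naive replicate 2 or NKT-like replicate 4. Of Lyz2 and Mpeg1, 1 was still lower without naive replicate 1 or any culture, and neither without naive replicate 2. Bst2 was not called without naive replicate 2. The part of such cells in the naive level of any gene, whether higher or lower in NKT-like cells, was not tested.

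**Figure D1:**
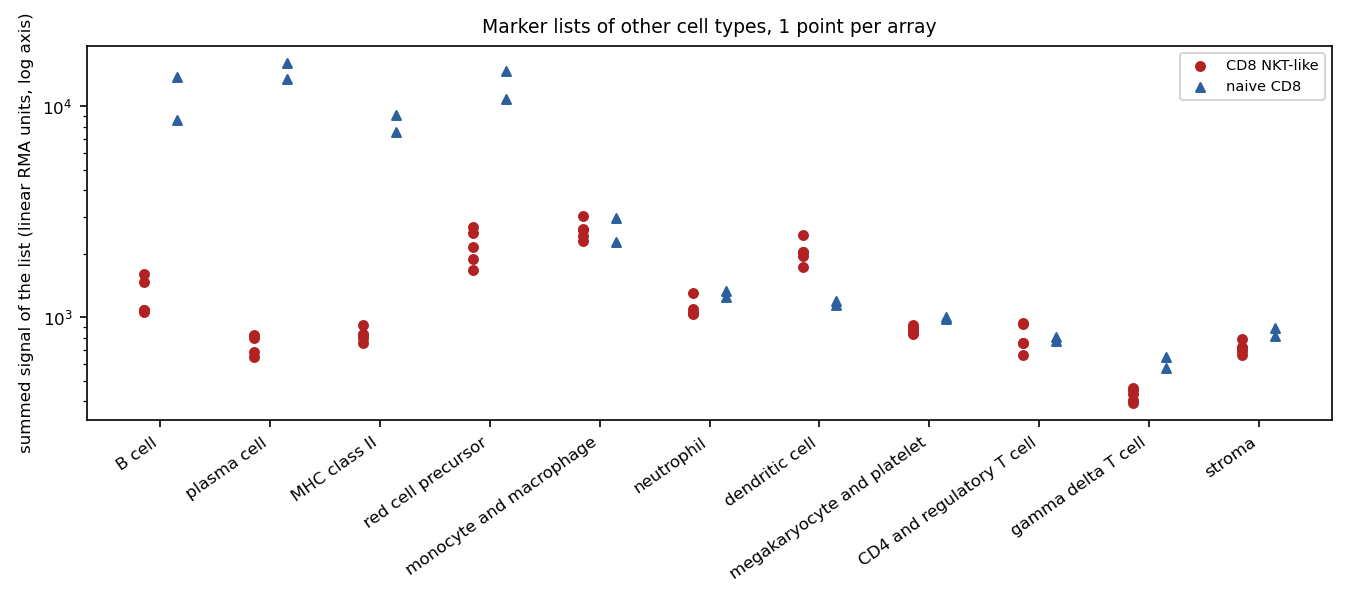
Summed signal of each marker list on a logarithmic axis in linear RMA units, 1 point per array, for the 5 CD8 NKT-like and the 2 naive CD8 arrays. The B cell, plasma cell, MHC class II and red cell precursor lists show the widest gaps, with naive sums of at least 7560 and NKT-like sums of at most 2680, and the dendritic cell sums lie the other way, at 1730 to 2460 in NKT-like and 1150 to 1190 in naive arrays.

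The groups were far apart on the arrays. Pairs of NKT-like arrays correlated at 0.978 to 0.990 over all probe sets and the naive pair at 0.984, against 0.915 to 0.939 between the groups. At a q-value of 0.01 and at least 2-fold, 2512 probe sets (5.58%) stood higher in the NKT-like cultures and 1091 (2.42%) lower. At least 10-fold, 127 were higher and 73 lower, and at least 100-fold, 10 and 5. By gene and at any fold, 1996 of 18193 (11.0%) were higher and 1203 (6.61%) lower, and the median difference of all genes was -0.05. Those shares and that median are the background for the lists that follow. All 5 cultures lay above both naive samples in 21.2% of genes and below both in 27.8%. Quantile normalization changed the split of genes to 1711 higher and 1646 lower, and median centring, which moved the median of all genes to 0.06, to 1968 and 757. A fit of the 7 arrays alone called 2420 genes higher and 2297 lower. Without naive replicate 1, 1102 genes were higher and 467 lower, and without naive replicate 2, 409 and 317. In those fits the lone naive sample is assumed to vary like the other groups. Most genes named here are therefore drawn from the 382 higher (2.1%) and 250 lower (1.37%) genes that passed with all arrays and again without each of the 7 arrays in turn, with groups that did not overlap.

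**Figure D2:**
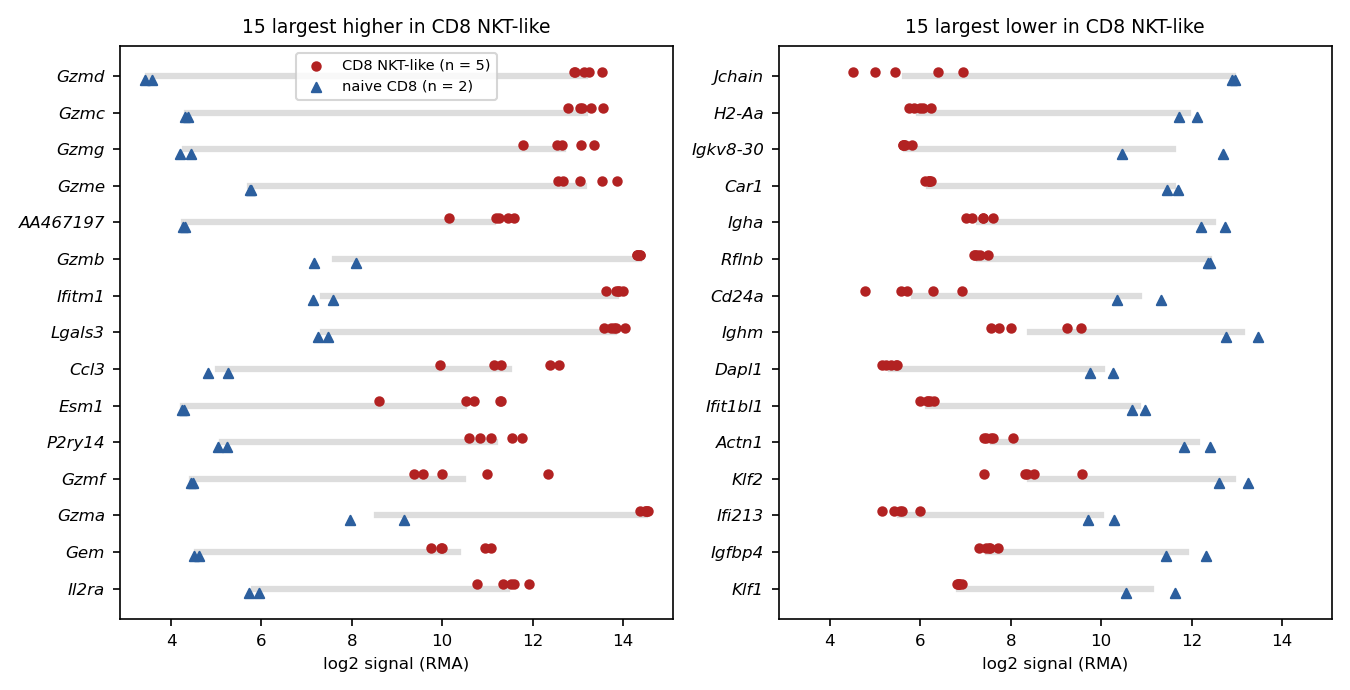
Log2 signal per array of the 15 genes with the largest fold in each direction, for CD8 NKT-like cultures (n = 5) and naive CD8 samples (n = 2). Genes had to be called with all arrays and without each of the 7 arrays, and to have groups that did not overlap. The lack of overlap was thus set by the choice. Jchain, H2-Aa, Igkv8-30, Car1, Igha, Ighm and Klf1 among the lower ones are genes of other blood cells.

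Granzymes, the serine proteases of killer cell granules, made up 7 of the 15 largest increases. The 15 were ranked by the probe set kept for each gene, so this share depends on that choice. Spp1 and Lilrb4 are not among them, although the study lists both as rising further than Il2ra, the last of the 15. Gzmd was at 13.14, 13.24, 12.92, 12.93 and 13.53 in NKT-like cultures 1 to 5 and at 3.42 and 3.58 in naive replicates 1 and 2. All 5 cultures stood at a high and even level, and both naive samples lay near the lowest values of the table (806-fold higher, q = 1.1e-06). Gzmc was at 13.10, 13.30, 12.78, 13.04 and 13.55 in the cultures and at 4.38 and 4.32 in naive cells (446-fold, q = 0.000144). Gzmg had 11.78, 12.53, 13.07, 12.66 and 13.36 in the cultures against 4.20 and 4.44 in naive cells (329-fold, q = 1.74e-06). Gzmb, which cleaves caspases in the target cell, was at 14.32 to 14.38 in the 5 cultures, near the top of the scale, and at 8.10 and 7.17 in naive cells (105-fold, q = 1.4e-07). Gzma, a tryptase, was also near the top, at 14.37 to 14.55 against 9.15 and 7.95 (61.5-fold, q = 2.2e-05). Gzme rose 166-fold and Gzmf 63.5-fold. The Gzme probe set is of a kind that may bind related sequences, so its signal may include that of its neighbours. Gzmf was the least even of the 7 among the cultures, at 9.38 to 12.33.

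Of 24 genes of granule killing, 15 were higher in NKT-like cells and none lower, with a median difference of 3.01. Without naive replicate 2 they were 13, with 1 lower. Besides the granzymes named above, the higher members were Prf1, Fasl, Gzmk, Serpinb6b, Serpinb9, Rab27a, Nkg7 and Stx11. Prf1, the pore-forming protein, was at 11.49, 11.61, 12.79, 11.89 and 13.45 in the cultures and at 7.73 and 7.05 in naive cells (29.0-fold, q = 4.81e-05), though another probe set gave 0.935-fold. Fasl, the death ligand, rose 24.4-fold and Serpinb9, which inhibits granzyme B inside the killer cell, 10.8-fold. Part of the machinery was already high in naive cells. Srgn, the proteoglycan that packs granule contents, measured 13.02 ± 0.20 in the cultures against 12.62 and 12.50 (1.38-fold, q = 0.0141), and Ctsc, which activates granzymes, 10.66 ± 0.20 against 10.52 and 10.50 (1.11-fold, q = 0.216). These 5 members were picked for their roles after their values were seen.

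The granzyme genes lie in 2 rows of neighbours. On chromosome 14 the measured genes run from Ctsg through Gzme, Gzmd, Gzmg, Gzmn, Gzmf and Gzmc to Gzmb. Gzmn, in the middle of this row, was at 4.66 to 4.99 in the cultures and at 4.47 and 4.69 in naive cells (1.24-fold, q = 0.0298). Ctsg, a protease of myeloid granules at the end of the row, was at 7.13 to 8.77 against 6.79 and 6.68 (2.34-fold, q = 0.0173). Neither was called, although the cultures lay above naive cells for Ctsg. On chromosome 13 Gzma and Gzmk stand between Gpx8 and Esm1, and all 4 were higher. Esm1, a secreted proteoglycan known from endothelium, was at 8.60, 10.53, 11.27, 11.30 and 10.70 in the cultures and at 4.28 and 4.24 in naive cells (74.5-fold, q = 3.65e-05). Gpx8, of the glutathione peroxidase family, was at 7.31, 9.52, 9.36, 9.65 and 9.61 against 5.27 and 5.30 (14-fold, q = 0.000277). Culture 1 was the lowest for both. Gzmk was at 11.59, 12.49, 12.72, 11.61 and 12.22 against 8.03 and 7.15 (23.3-fold, q = 2.56e-06). Cdc20b, next to Gpx8, was at 5.09 to 5.43 against 5.08 and 5.26 (1.07-fold, q = 0.28). Gzmn, Ctsg, Gzmk, Gpx8 and Cdc20b are given for their place beside genes with large changes and were chosen after their values were seen.

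**Figure D3:**
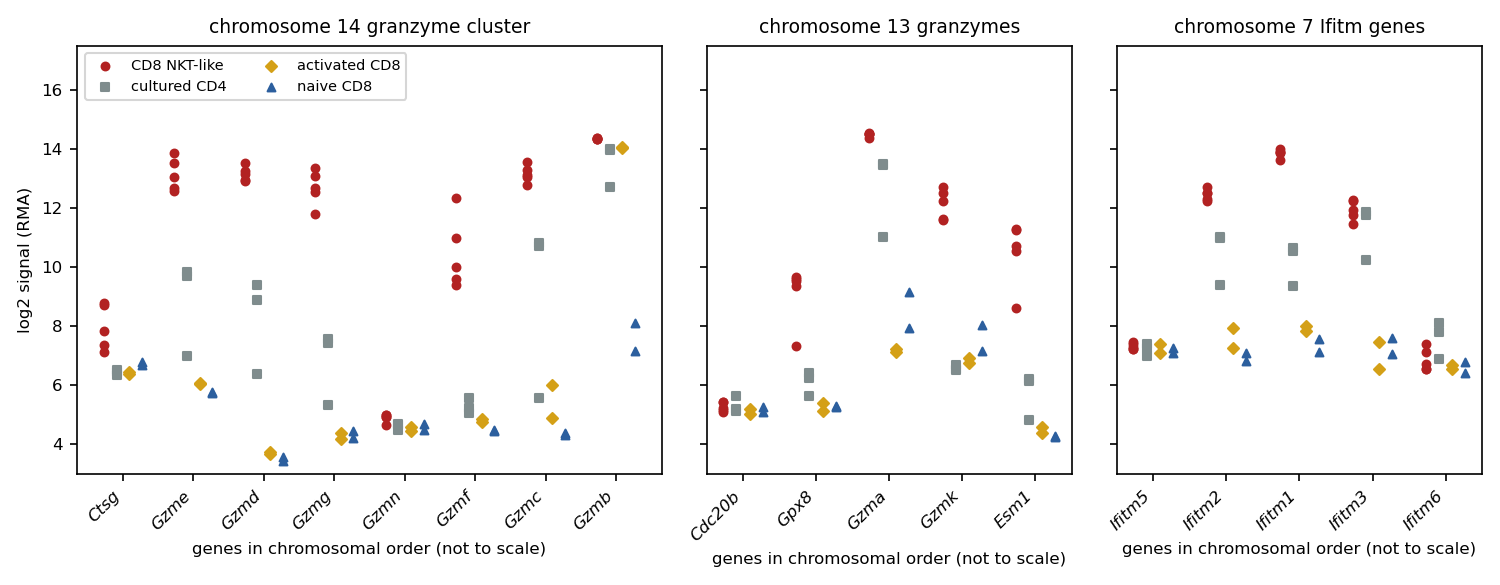
Log2 signal of neighbouring genes in chromosomal order, not to scale, on chromosomes 14, 13 and 7, 1 point per array for CD8 NKT-like, cultured CD4, activated CD8 and naive CD8 cells. In the chromosome 14 row Gzme, Gzmd, Gzmg, Gzmf and Gzmc lie at 9.38 or above in the NKT-like cultures and at 5.77 or below in naive cells, while Gzmn stays at 4.99 or below in both groups.

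The promoters of the chromosome 14 granzymes are shown because these genes rose together and because most of them are close copies. RefSeq start sites of build GRCm38.p6 gave a promoter for 14452 of the 18193 genes. Each window printed holds 230 bases, from 200 before the start site to 30 after it, 5′ to 3′ on the strand of the gene, which is minus for all 4. Capitals mark the RUNX motif, searched as TGTGGTT on both strands, the letters bound by Runx factors of killer T cells.
Gzmd promoter, chr14:56132564-56132793: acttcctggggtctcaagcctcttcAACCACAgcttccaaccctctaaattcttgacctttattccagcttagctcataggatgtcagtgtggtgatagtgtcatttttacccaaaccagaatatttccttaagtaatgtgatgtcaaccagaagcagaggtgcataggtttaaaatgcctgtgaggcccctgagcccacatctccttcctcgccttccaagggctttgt
Gzmc promoter, chr14:56234628-56234857: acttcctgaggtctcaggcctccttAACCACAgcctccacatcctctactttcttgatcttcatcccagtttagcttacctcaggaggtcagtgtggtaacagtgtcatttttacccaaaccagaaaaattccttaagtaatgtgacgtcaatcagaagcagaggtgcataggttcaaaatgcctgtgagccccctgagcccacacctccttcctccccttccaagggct
Gzmg promoter, chr14:56159550-56159779: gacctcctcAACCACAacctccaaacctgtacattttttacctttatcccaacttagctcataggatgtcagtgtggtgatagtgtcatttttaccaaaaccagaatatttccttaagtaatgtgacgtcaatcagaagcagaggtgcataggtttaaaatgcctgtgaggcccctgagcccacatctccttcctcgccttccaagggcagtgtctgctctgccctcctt
Gzmb promoter, chr14:56262305-56262534: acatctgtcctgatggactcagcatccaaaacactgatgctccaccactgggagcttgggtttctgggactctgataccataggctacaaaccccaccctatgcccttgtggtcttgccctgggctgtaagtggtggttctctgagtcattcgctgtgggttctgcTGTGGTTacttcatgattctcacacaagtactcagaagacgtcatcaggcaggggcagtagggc
Over 250 bases before to 50 after the start, the promoter of Gzmd matched that of Gzme in 93.4% of aligned positions, that of Gzmc in 83.5%, that of Gzmg in 82.6% and that of Gzmb in 50.4%. The RUNX motif stood at position -175 from the start in Gzmd and Gzmc, at -191 in Gzmg and at -34 in Gzmb. It was found in 9 of the 22 granule killing genes with a promoter, in 8 of the 15 that were higher and in 1 of the 7 not called. Of all genes with a promoter 5.04% held it, as did 4.22% of those higher in NKT-like cells and 5.69% of those lower. The granzyme copies share sequence, so their matches are not separate observations. The motifs given here were chosen after the gene values were seen, and a match describes the letters, not a bound site.

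NK cell receptors were uneven. Of 20 receptors and adaptors 4 were higher (Fcer1g, Cd244a, Klrg1 and Slamf7) and none lower, with a median difference of 0.62. Fcer1g, a signalling adaptor of Fc and NK receptors, was at 10.73, 11.39, 9.88, 11.39 and 11.80 in cultures 1 to 5 and at 7.31 and 7.44 in naive cells, so that even the lowest culture stood clear of them (12.7-fold, q = 5.37e-05). Slamf7, a receptor of the SLAM family, measured 8.29 ± 0.30 in the cultures against 6.54 and 6.74 (3.14-fold, q = 0.000145). Without naive replicate 1, and likewise without naive replicate 2, 2 of the 20 were called. Without NKT-like replicate 3 or 4 the number was 8 or 7, and the receptors that differ between cultures are described further on.

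Most targets of IL-2 and STAT5 were higher. Of 17 genes 11 were higher and none lower, with a median difference of 1.72. The number was 6 without naive replicate 2, and 1 member was lower without NKT-like replicate 3. Il2ra, the high-affinity chain of the IL-2 receptor, was at 10.76, 11.52, 11.59, 11.91 and 11.35 in the cultures and at 5.73 and 5.94 in naive cells (48.4-fold, q = 1.2e-07). Socs2, a feedback inhibitor of cytokine receptors, rose 31.2-fold, with probe sets down to 0.746-fold, and Nfil3, a transcription factor of NK and T cells, 19.7-fold. Cish, another inhibitor of cytokine signals, measured 12.07 ± 0.36 in the cultures against 8.74 and 9.12 (8.81-fold, q = 2.99e-06). Its promoter is shown with both copies of the STAT motif, TTCNNNGAA, in capitals (plus strand, GRCm38.p6, RefSeq).
Cish promoter, chr9:107296459-107296688: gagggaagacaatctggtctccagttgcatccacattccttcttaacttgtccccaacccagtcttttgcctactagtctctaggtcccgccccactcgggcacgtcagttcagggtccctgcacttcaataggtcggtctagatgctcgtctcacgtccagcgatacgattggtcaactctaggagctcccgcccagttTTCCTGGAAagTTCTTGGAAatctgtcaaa
The copies of the STAT motif begin at the start site and 11 bases after it. The motif was found in 3 of the 14 genes of the list with a promoter, in 2 of the 8 that were higher, and in 8.57% of all genes with a promoter.

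Of 19 cytokines 4 were higher, Ifng, Il10, Lta and Tnf, and 1 was lower, Ltb, with a median difference of 0. Il10, an inhibitory cytokine, was at 8.86, 10.31, 12.33, 12.21 and 10.12 in cultures 1 to 5 and at 5.20 and 5.21 in naive cells (47.2-fold, q = 0.00026). The cultures differed widely for Il10 and still did not overlap with naive cells, and it was the only cytokine called both without naive replicate 1 and without naive replicate 2. Ifng, the effector cytokine, was at 8.43, 11.51, 10.54, 7.85 and 11.80 against 4.35 and 4.35 (51.2-fold, q = 0.00485), and its q rose above the threshold with naive replicate 1 left out (0.0359) or naive replicate 2 (0.0667). Ltb, a lymphotoxin chain of resting lymphocytes, measured 10.27 ± 0.57 against 13.28 and 13.35 (8.24-fold lower, q = 0.00117, and 0.013 and 0.0269 without naive replicates 1 and 2). Of 12 chemokines Ccl3 and Ccl4 were higher and Cxcl9 lower, and Ccl3 was the only one called without naive replicate 2. Ccl3, a chemokine of killer cells, was at 9.96, 12.39, 11.15, 11.30 and 12.58 against 4.83 and 5.26 (86.2-fold, q = 0.000152). Cxcl9, an interferon-induced chemokine, measured 5.96 ± 0.11 against 6.53 and 6.73 (1.59-fold lower, q = 0.00079, and 0.0287 without naive replicate 2).

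Receptors for chemokines and lipids changed in both directions, 5 of 23 higher and 7 lower, with a median difference of -0.29. Without naive replicate 2 they were 3 and 5. P2ry14, a receptor for UDP-glucose, was at 10.84, 11.09, 11.54, 11.77 and 10.60 in the cultures and at 5.23 and 5.05 in naive cells (65.4-fold, q = 1.18e-06). The prostaglandin E2 receptors Ptger3 and Ptger2 rose 12.0- and 4.52-fold, although another probe set of Ptger3 gave 0.867-fold. The receptors that fell include those of naive cell traffic. Cxcr4, the receptor for Cxcl12, was at 4.94 to 5.33 in the cultures and at 8.90 and 9.43 in naive cells (16.9-fold lower, q = 9.14e-07). Ccr7, which brings naive cells into lymph nodes, was at 6.18 to 6.55 against 10.87 and 8.70 (10.4-fold lower, q = 0.000157). S1pr1, which lets them out again, was at 6.47 to 6.80 against 10.73 and 9.30 (10.1-fold lower, q = 9.94e-05). The naive samples were themselves apart for both, and each lay above every culture. Ccr9, a gut homing receptor, fell 6.66-fold.

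Inhibitory and costimulatory receptors were mostly higher, 11 of 20, with 2 lower and a median difference of 1.33. The higher ones numbered 4 without naive replicate 1 and 3 without the other. Havcr2 (Tim-3), an inhibitory receptor of effector cells, was at 9.36, 10.38, 10.81, 10.76 and 11.16 in the cultures against 5.35 and 5.26 (36.5-fold, q = 2.08e-05). Tnfrsf9 (4-1BB), a costimulatory receptor, measured 11.65 ± 0.21 against 8.71 and 8.86 (7.29-fold, q = 3.69e-06), though 1 of its probe sets gave 0.878-fold. Pdcd1lg2, a ligand of PD-1, rose 4.61-fold. Btla, an inhibitory receptor of resting lymphocytes, went the other way, at 6.20 to 6.50 in the cultures against 9.21 and 8.98 (6.51-fold lower, q = 1.69e-05). Cd86, a gene of antigen-presenting cells, was 1.79-fold lower (q = 0.00658). It was not called without naive replicate 1 (q = 0.0995) nor without any one of the NKT-like replicates, and the MHC class II and B cell sums were lower too.

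Interferon-responsive genes split. Of 29 genes 7 were higher and 12 lower, with a median difference of -0.55. They were 6 and 3 without naive replicate 1, and 4 and 5 without naive replicate 2. The IFITM proteins, which block virus entry at membranes, rose most. Ifitm1 was at 13.62, 13.88, 13.91, 13.85 and 13.99 in cultures 1 to 5 and at 7.14 and 7.58 in naive cells (89.9-fold, q = 7.95e-08). Ifitm2 was at 12.25 to 12.71 against 7.08 and 6.81 (45.6-fold) and Ifitm3 at 11.46 to 12.27 against 7.59 and 7.06 (24.3-fold). Their neighbours on chromosome 7, taken for their place in the row, were not called. Ifitm5 was at 7.22 to 7.45 against 7.09 and 7.27 (q = 0.201) and Ifitm6 at 6.54 to 7.39 against 6.41 and 6.77 (q = 0.223). Irf8, a transcription factor of the interferon regulatory family, rose 14.4-fold, and Bst2, Mx1 and Gbp3 rose 2.75-, 2.51- and 2.17-fold but were not called without naive replicate 2 (q = 0.0425, 0.109 and 0.0465).

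Other interferon-induced genes fell. Ifit1, which binds viral RNA, was at 4.81 to 5.02 in the cultures and at 7.94 and 7.55 in naive cells (7.06-fold lower, q = 7.44e-05). Rtp4 was at 5.79 to 6.25 against 9.39 and 9.96 (13-fold lower) and Ifit2 at 5.39 to 5.84 against 7.79 and 7.42 (3.96-fold lower). Outside the list, Ifit1bl1, a relative of Ifit1, was at 6.18, 6.14, 6.30, 6.00 and 6.21 against 10.97 and 10.68 (25.3-fold lower, q = 4.1e-09). Ifi213, of the interferon-inducible p200 family, was at 5.60, 5.99, 5.42, 5.56 and 5.15 against 10.28 and 9.70 (21.7-fold lower, q = 3.37e-07). All 5 cultures were low and close together for each of these genes.

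Promoters of 2 genes that rose and 1 that fell are shown because they hold the same element, the interferon-stimulated response element (ISRE), searched on both strands as GAAA and GAAA with 2 bases of any kind between them and set in capitals. Ifitm2 and Ifitm3 lie on the minus strand and Ifit1 on the plus strand (GRCm38.p6, RefSeq).
Ifitm2 promoter, chr7:140955932-140956161: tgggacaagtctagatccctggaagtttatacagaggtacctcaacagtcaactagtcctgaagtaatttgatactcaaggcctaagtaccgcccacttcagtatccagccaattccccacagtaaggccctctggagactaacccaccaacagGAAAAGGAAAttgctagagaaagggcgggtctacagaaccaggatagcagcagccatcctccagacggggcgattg
Ifitm3 promoter, chr7:141010715-141010944: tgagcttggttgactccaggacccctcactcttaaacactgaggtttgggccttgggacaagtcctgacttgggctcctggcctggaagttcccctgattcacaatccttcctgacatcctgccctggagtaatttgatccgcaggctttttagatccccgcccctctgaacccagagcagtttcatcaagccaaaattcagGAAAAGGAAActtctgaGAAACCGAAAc
Ifit1 promoter, chr19:34640689-34640918: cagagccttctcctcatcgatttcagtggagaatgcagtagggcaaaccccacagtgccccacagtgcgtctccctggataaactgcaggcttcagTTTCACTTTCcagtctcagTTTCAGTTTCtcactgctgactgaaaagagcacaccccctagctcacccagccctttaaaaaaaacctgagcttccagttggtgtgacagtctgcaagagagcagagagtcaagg
The ISRE was found in 16 of the 24 interferon genes with a promoter and in 3.63% of all genes with a promoter. It was in 4 of the 6 higher members, 6 of the 9 lower members and 6 of the 9 not called, a share of 66.7% each time. Among all genes it was in 4.03% of those higher in NKT-like cells and in 7.09% of those lower.

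Transcription factors of T cell fate were raised in part, 12 of 30 against 1 lower, with a median difference of 0.88, and 8 were higher without naive replicate 2. Epas1, a hypoxia-inducible factor, was at 8.79, 9.72, 12.50, 11.24 and 10.33 in the cultures and at 5.26 and 5.55 in naive cells (34.5-fold, q = 0.000311). Mycn, a MYC family factor, was at 10.63, 10.02, 11.32, 10.81 and 10.43 against 6.36 and 6.17 (20.8-fold, q = 6.56e-06). Bhlhe40, a cofactor of cytokine production, was at 11.19, 11.70, 11.80, 12.11 and 11.17 against 7.02 and 7.47 (20.4-fold, q = 2.69e-06). The cultures were far above naive cells for all 3, and Epas1 was the least even. Zbtb32, a repressor of lymphocyte responses, rose 9.27-fold. Other probe sets gave down to 0.938-fold for Mycn and 0.814-fold for Zbtb32. Tox, a factor of thymic development, was the 1 lower, at 4.69 to 4.92 against 6.67 and 5.66 (2.53-fold, q = 0.000963, and 0.0115 without naive replicate 1). Without NKT-like replicate 4 the lower ones numbered 2.

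Of 22 immediate early genes 8 were higher and 1 lower, with a median difference of 0.78, and 3 were higher without naive replicate 1 and 3 without naive replicate 2. Both times those were Ier3, Fosl2 and Atf3, transcription and stress genes of freshly triggered cells, which rose 12.4-, 5.28- and 2.38-fold. Ier3 was at 9.45, 9.38, 10.36, 10.52 and 9.54 against 6.74 and 5.68 (q = 3.62e-05). Nfkbia, the NF-κB inhibitor, was 2.85-fold lower (q = 0.00609, and 0.0299 and 0.101 without naive replicates 1 and 2), and it was not called without NKT-like replicate 5 either.

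Most division genes were higher, and so were some inhibitors of division. Of 27 DNA replication genes 15 were higher and of 27 mitosis genes 15, with none lower and median differences of 1.01 and 1.41. Rrm2, the ribonucleotide reductase subunit made in S phase, was at 11.00, 10.19, 9.73, 10.53 and 10.43 in the cultures and at 7.50 and 8.27 in naive cells (5.63-fold, q = 9.24e-05). Ube2c, a ubiquitin-conjugating enzyme of mitotic exit, was at 11.36, 9.94, 9.83, 9.99 and 10.35 against 7.84 and 7.75 (5.65-fold, q = 0.000267), highest in culture 1. Each was the only member of its list called without naive replicate 2. With naive replicate 1 left out the higher genes numbered 10 for replication and 3 for mitosis, and 1 replication gene was lower without NKT-like replicate 1. Of 12 CDK inhibitors, D cyclins and kinases 6 were higher and 1 lower, and 3 were higher and none lower without naive replicate 2. Cdkn1a (p21) measured 12.31 ± 0.31 against 7.67 and 7.59 (25.7-fold, q = 1.41e-07), Cdkn2b (p15) rose 14.1-fold, and Cdk6, the kinase that p15 inhibits, 5.34-fold. Cdkn1b (p27), the inhibitor of resting T cells, was 3.08-fold lower (q = 0.000802, and 0.0303 without naive replicate 2).

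The promoter of Ube2c is shown for the cell cycle homology region (CHR), searched as TTTGAATT on both strands, an element of genes expressed in mitosis (plus strand, GRCm38.p6, RefSeq).
Ube2c promoter, chr2:164769729-164769958: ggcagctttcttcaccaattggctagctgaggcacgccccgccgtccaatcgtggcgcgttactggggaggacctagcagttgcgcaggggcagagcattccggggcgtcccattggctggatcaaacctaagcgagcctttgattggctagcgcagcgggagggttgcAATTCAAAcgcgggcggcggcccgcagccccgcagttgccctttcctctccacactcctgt
The CHR starts at position -31 from the start site. It was found in 5 of the 23 mitosis genes with a promoter, all among the 12 that were higher and in none of the 11 not called, and in 1.25% of all genes with a promoter. Among all genes it was in 1.77% of those higher in NKT-like cells and in 0.752% of those lower.

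Of 21 genes of the BCL2 family and the death pathway 5 were higher and none lower, with a median difference of 0.53, and 3 and 2 without naive replicates 1 and 2. Pmaip1 (Noxa), a death-promoting member, was at 7.69, 8.61, 8.93, 8.52 and 8.52 in the cultures against 4.93 and 4.80 (12.0-fold, q = 1.97e-05). Bcl2l1, whose long product protects cells, rose 3.75-fold, with another probe set at 0.955-fold.

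Cholesterol synthesis had the largest share of higher genes of the 37 lists, 16 of 21 with none lower, and a median difference of 1.96. Cyp51, the sterol demethylase, was at 10.29, 9.59, 10.29, 10.36 and 9.15 in the cultures and at 6.13 and 5.23 in naive cells (19.2-fold, q = 1.26e-05). Fdps, Sqle and Idi1, enzymes of the steps from isoprenoids to squalene epoxide, rose 7.51-, 7.48- and 7.29-fold. Of the 17 members with a promoter 16 held the letters CCAAT on either strand, against 42.0% of all genes with a promoter. Those were all 12 of the higher members and 4 of the 5 not called. The letters were also in 19 of the 23 mitosis genes and 20 of the 27 genes of the endoplasmic reticulum with a promoter. Of 18 fatty acid genes 10 were higher and 2 lower, with a median difference of 0.98, and 3 were higher without naive replicate 2. Scd2, a desaturase, was at 12.48, 12.39, 12.33, 12.51 and 11.82 against 8.92 and 7.95 (14.6-fold, q = 1.17e-06), Scd1 rose 6.64-fold and Acsl4, which activates long fatty acids, 3.09-fold. Elovl7, an elongase, was at 5.03 to 5.31 against 5.93 and 5.96 (1.69-fold lower, q = 0.000269). Acss2, which makes acetyl-CoA from acetate, was 2.94-fold lower (q = 0.000686, and 0.0116 and 0.0128 without naive replicates 1 and 2).

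Glycolysis genes rose, 12 of 20 against 1 lower, with a median difference of 1.45 and 6 higher without naive replicate 2. Pkm, the last enzyme of the pathway, was at 11.37, 10.97, 12.23, 11.54 and 12.21 in the cultures and at 8.98 and 7.57 in naive cells (10.5-fold, q = 8.8e-05). Hk2, the first enzyme, rose 7.8-fold, Tpi1 5.02-fold and Pgam1 4.69-fold. Pdk1, which holds pyruvate back from mitochondria, was the 1 lower (2.93-fold, q = 0.000844, and 0.0139 and 0.0139 without naive replicates 1 and 2). In amino acid supply 12 of 23 were higher and 1 lower, with a median difference of 1.22, and 5 were higher without naive replicate 2. Psat1, of serine synthesis, was at 11.11, 10.87, 10.89, 11.26 and 10.80 against 8.05 and 7.21 (10.3-fold, q = 1.74e-06). The amino acid carrier Slc7a5, the asparagine synthetase Asns and the folate enzyme Mthfd2 rose 6.38-, 5.13- and 4.14-fold. Slc43a1, another carrier, was 1.62-fold lower (q = 0.00186, and 0.0313 and 0.0111 without naive replicates 1 and 2), and without NKT-like replicate 2 or 3 the lower members numbered 2.

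Mitochondrial genes changed in part. Of 23 TCA cycle genes 7 were higher and 1 lower, and of 76 respiratory chain subunits 19 and 2, with median differences of 0.50 and 0.47. Pcx, pyruvate carboxylase, was at 8.50, 8.30, 7.82, 7.99 and 8.41 in the cultures against 6.63 and 6.54 (3.07-fold, q = 0.000116), and Atp5pb, of the ATP synthase, rose 3.31-fold. Without naive replicate 2 each was the only higher gene of its list. The respiratory chain count was 12 without naive replicate 1, 10 without NKT-like replicate 1, 8 after quantile normalization and 7 after cyclic loess. Atp5c1 was 1.86-fold lower (q = 0.000233) with another probe set at 1.64-fold, Idh2 3.15-fold lower (q = 0.000257, and 0.011 without naive replicate 2) and Ndufb4 1.84-fold lower (q = 0.00584, and 0.148 without naive replicate 2).

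Genes of protein folding and degradation were called higher in large numbers, and the counts were lowest without naive replicate 2. Of 34 genes of the endoplasmic reticulum (ER) 20 were higher and none lower, with a median difference of 1.01, 13 higher without naive replicate 1 and 7 without naive replicate 2. Canx, the lectin chaperone calnexin, was at 9.45, 9.06, 9.64, 9.41 and 9.90 in the cultures and at 7.33 and 7.42 in naive cells (4.34-fold, q = 9.04e-05). Spcs2 of the signal peptidase, Ssr3 of the translocon and P4hb, a disulphide isomerase, rose 2.94-, 2.75- and 2.67-fold. Calr, calreticulin, which also serves MHC class I loading, was at 12.81, 12.64, 12.91, 12.47 and 13.01 against 11.67 and 11.48 (2.29-fold, q = 0.000168). Of 42 proteasome subunits 27 were higher and none lower, with a median difference of 1.00. The number was 15 without naive replicate 1, 13 after quantile normalization and 12 after cyclic loess, and Psmb5 was the only subunit called without naive replicate 2. Psmb5, a catalytic subunit, was at 11.33, 11.28, 11.61, 11.34 and 11.69 against 10.16 and 8.45 (4.43-fold, q = 0.000714), with naive replicate 2 far below naive replicate 1.

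The promoters of Canx and Calr, both on the minus strand, are shown for the ER stress response element (ERSE), searched on both strands as CCAAT and CCACG with 9 bases of any kind between them and set in capitals (GRCm38.p6, RefSeq).
Canx promoter, chr11:50325644-50325873: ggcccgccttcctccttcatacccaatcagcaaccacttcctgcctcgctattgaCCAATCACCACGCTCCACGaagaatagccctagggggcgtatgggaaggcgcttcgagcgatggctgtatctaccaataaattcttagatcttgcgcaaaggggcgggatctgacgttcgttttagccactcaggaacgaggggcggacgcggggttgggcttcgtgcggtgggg
Calr promoter, chr8:84846902-84847131: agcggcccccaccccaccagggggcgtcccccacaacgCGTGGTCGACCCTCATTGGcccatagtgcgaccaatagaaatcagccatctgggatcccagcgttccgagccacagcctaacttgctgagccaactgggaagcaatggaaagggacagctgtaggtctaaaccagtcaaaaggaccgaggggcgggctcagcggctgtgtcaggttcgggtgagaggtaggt
The ERSE, which contains the letters CCAAT counted above, was found in 20 of the 14452 genes with a promoter (0.138%). Of the 27 ER genes with a promoter 7 held it, 6 of the 16 that were higher and 1 of the 11 not called. Among proteasome subunits the letters ACTTCCG, a core of ETS factor sites, were found on either strand in 12 of the 22 higher genes with a promoter and in 1 of the 13 not called, against 10.9% of all genes with a promoter and 16.9% of those higher in NKT-like cells. This split of the subunits follows calls whose number changed with the normalization and with the arrays used, as given above.

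Genes of ribosome biogenesis and ribosomal proteins gave 1 call that was kept without each array in turn, Rps27l. Of 29 biogenesis genes 10 were higher, 6 without naive replicate 1 or without NKT-like replicate 1 or 5, and none without naive replicate 2. Nop58, of the box C/D particles, rose 4.44-fold (q = 0.000812, and 0.0309 without naive replicate 2). Nhp2, of the box H/ACA particles, rose 6.18-fold (q = 0.00134, and 0.0408 without naive replicate 2). Of 48 ribosomal proteins 3 were higher and 2 lower, with a median difference of 0, but cyclic loess gave 2 higher and 21 lower with a median of -0.40. Rps27l was at 12.27, 12.57, 12.08, 12.18 and 12.81 in the cultures against 10.57 and 10.73 (3.32-fold, q = 0.000103). Rpl12 was 3.53-fold and Rps29 1.32-fold lower, and without naive replicate 2 neither was called (q = 0.043 and 0.16). The higher ribosomal proteins numbered 1 without naive replicate 2 or NKT-like replicate 1, 2 or 4, and the lower ones none without naive replicate 1 or 2 and 1 without NKT-like replicate 1, 3, 4 or 5.

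Some calcium-binding and cytoskeletal genes were raised by a large factor. Of 31 annexins, S100 proteins and galectins 11 were higher and 1 lower, with a median difference of 0.11. Lgals3, the lectin galectin-3, was at 13.57, 13.84, 14.05, 13.80 and 13.74 in the cultures and at 7.25 and 7.47 in naive cells (87.0-fold, q = 1.43e-07). S100a4 was at 12.45, 13.67, 13.30, 13.55 and 13.51 against 7.98 and 7.77 (42.8-fold, q = 4.91e-06). S100a6 rose 25.9-fold and Anxa1, a phospholipid-binding protein, 19.2-fold, with 0.964-fold for another probe set of Anxa1. S100a8, a neutrophil gene, was 1.48-fold lower (q = 0.00583, and 0.146 without naive replicate 2), and it was not called without any one NKT-like replicate or after cyclic loess. Of 31 cytoskeletal genes 8 were higher and none lower, 4 without naive replicate 2 and 3 after cyclic loess. Capg, an actin-capping protein, rose 15.9-fold, Tubb6, a tubulin, 12.1-fold and Actg1, an actin, 1.61-fold. The actin crosslinker Actn1 was counted with the naive T cell genes and not in this list, and it was 22.7-fold lower. Vim, the intermediate filament vimentin, was at 13.40 to 14.01 against 11.27 and 10.52 (7.36-fold, q = 8.75e-06).

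Some feedback regulators of signalling were higher, 8 of 20 G protein regulators and MAPK phosphatases against 1 lower, with a median difference of 0.94 and 5 higher without naive replicate 1 as without naive replicate 2. Rgs1 was at 9.18, 11.08, 11.67, 11.58 and 11.11 in the cultures and at 6.28 and 6.42 in naive cells (23.9-fold, q = 7.38e-05), lowest in culture 1. Spry2, an inhibitor of the MAPK pathway, rose 7.49-fold, with another probe set at 0.832-fold, and the phosphatases Dusp14 and Dusp6 rose 6.23- and 5.93-fold. Rgs10 was 4.25-fold lower (q = 0.0019, and 0.0303 and 0.0159 without naive replicates 1 and 2). Of 23 lysosome genes 8 were higher and 1 lower, 5 higher without NKT-like replicate 4 and 2 without naive replicate 2. Those 2 were Glb1, a galactosidase, and Npc1, a cholesterol transporter, which rose 4.91- and 4.23-fold. Ctss, a cathepsin of antigen-presenting cells, was at 8.59, 8.16, 9.05, 9.67 and 6.38 against 11.50 and 11.57 (8.95-fold lower, q = 0.00243, and 0.0219 and 0.0444 without naive replicates 1 and 2).

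Besides Esm1, 2 of the 15 largest increases were in no list. Gem, a small GTPase, was at 10.35 ± 0.61 in the cultures against 4.50 and 4.63 (55.1-fold, q = 4.77e-06). AA467197 was at 10.16, 11.59, 11.18, 11.45 and 11.25 against 4.26 and 4.32 (114-fold, q = 6.22e-06).

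On the lower side, 7 of the 15 largest falls by the probe sets kept were genes of antibodies, MHC class II or red cells. Another probe set of a gene can give another fold, so this share depends on that choice. The probe set kept for Klf3 was at 8.54 to 8.75 in the cultures and at 10.58 and 10.32 in naive cells. The study lists Klf3 and Tcf7 as falling further than any of the 15 but Jchain. Jchain, which joins antibody units, was at 6.94, 6.38, 5.44, 4.52 and 4.99 in the cultures and at 12.95 and 12.90 in naive cells (154-fold lower, q = 3.98e-06). H2-Aa was 61.7-fold, Igkv8-30 59.9-fold, Car1 42.3-fold, Igha 35.8-fold, Ighm 26.0-fold and Klf1 18.8-fold lower. All of these but Igkv8-30 are themselves members of the marker lists above. The other 8 were Rflnb, Cd24a, Dapl1, Ifit1bl1, Actn1, Klf2, Ifi213 and Igfbp4. Rflnb, a filamin-binding protein, was at 7.49, 7.32, 7.22, 7.19 and 7.25 in the cultures and at 12.36 and 12.40 in naive cells (34.0-fold lower, q = 4.3e-09). Cd24a, a surface glycoprotein that B cells and red cell precursors also carry, was at 4.77, 5.70, 6.93, 6.28 and 5.57 against 10.34 and 11.33 (31.7-fold lower, q = 3.32e-05). The B cell and red cell sums were lower too, and their part in Cd24a was not tested.

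Genes typical of naive T cells fell together. The list of naive T cell surface genes also holds genes whose products are not at the surface, such as Actn1. Of 15 naive T cell surface genes 11 were lower and 1 higher, with a median difference of -2.45, and 10 were lower without naive replicate 1 and 10 without naive replicate 2. Dapl1, a gene of naive and memory T cells, was at 5.25, 5.46, 5.35, 5.49 and 5.16 in the cultures and at 10.27 and 9.75 in naive cells (25.4-fold lower, q = 3.88e-08). Actn1, an actin crosslinker, was at 7.40 to 8.05 against 12.41 and 11.84 (22.7-fold lower) and Igfbp4, which binds insulin-like growth factors, at 7.29 to 7.71 against 12.32 and 11.43 (20.8-fold lower). Il7r, the IL-7 receptor chain, was at 8.73, 9.93, 9.77, 9.61 and 9.17 against 12.33 and 12.65 (8.25-fold lower, q = 2.48e-05), so that a clear signal was left in the cultures. Cd55, a complement regulator, was the 1 higher (2.46-fold, q = 0.00311, and 0.0122 and 0.0802 without naive replicates 1 and 2).

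Of 27 regulators of quiescence 16 were lower and 1 higher, with a median difference of -1.17, and 8 were lower without naive replicate 1 and 9 without naive replicate 2. Klf2, which holds the resting state and the homing receptors, was at 8.31, 8.52, 9.57, 8.35 and 7.41 in the cultures against 13.24 and 12.61 (22.5-fold lower, q = 7.73e-05). Tsc22d3, a glucocorticoid-induced factor, was at 6.59 to 7.42 against 9.71 and 9.73 (6.8-fold lower) and Pik3ip1, an inhibitor of PI3 kinase, at 8.01 to 9.46 against 11.18 and 11.66 (6.65-fold lower). Lef1, a Wnt pathway factor of early T cells, was at 9.01 to 9.40 against 11.53 and 11.47 (4.71-fold lower, q = 6.36e-06). Klf6, a relative of Klf2, was the 1 higher (2.51-fold, q = 0.00748, and 0.0232 and 0.14 without naive replicates 1 and 2, nor called without NKT-like replicate 1 or 4).

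**Figure D4:**
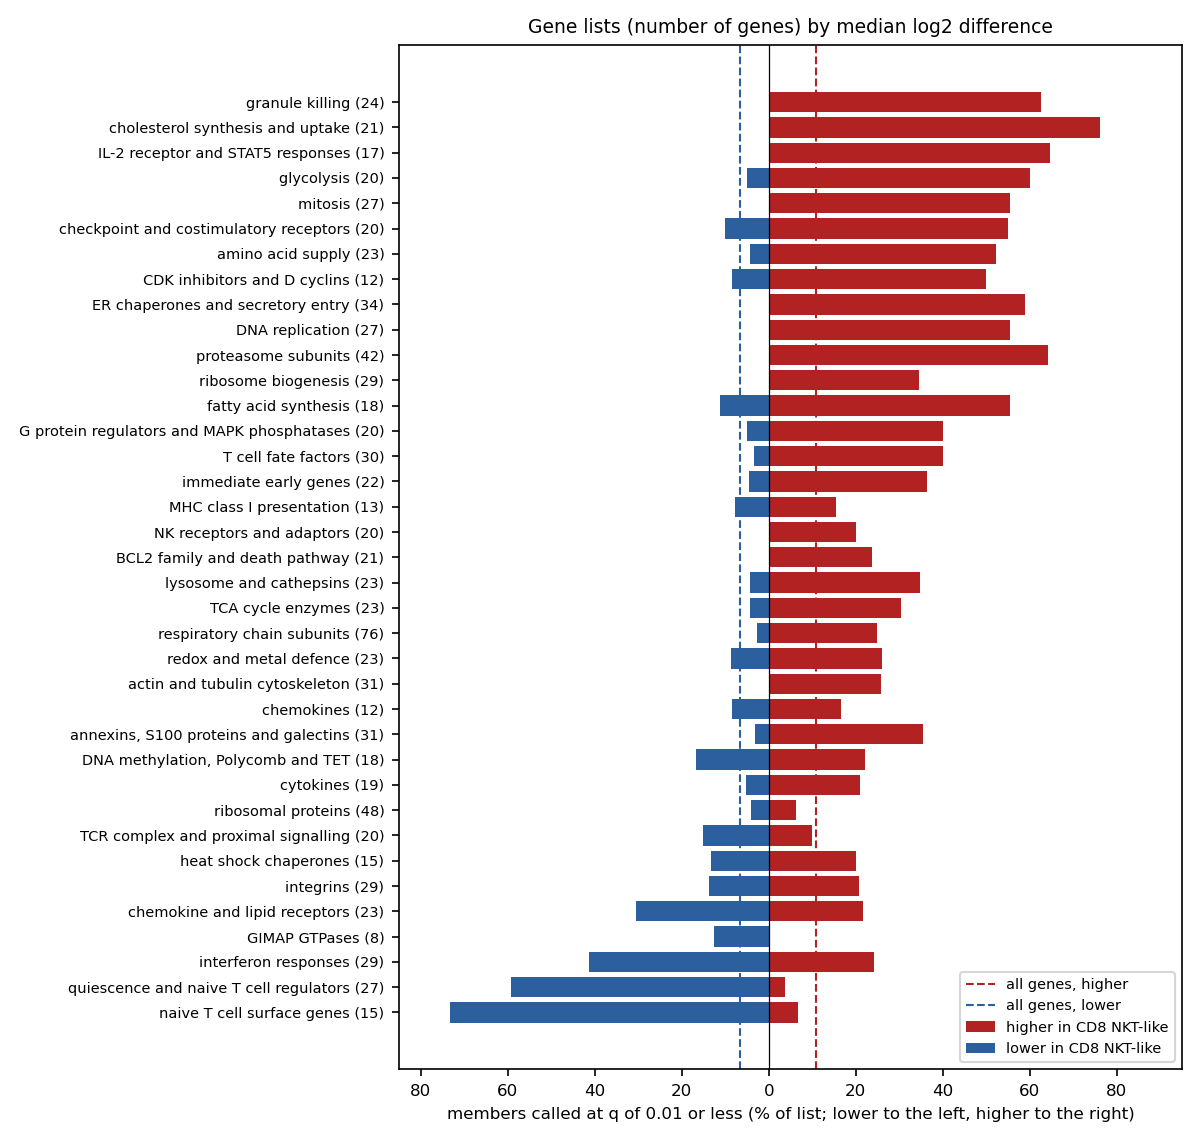
Share of each of 37 gene lists called higher or lower in CD8 NKT-like than in naive CD8 cells, with the number of genes of each list and dashed lines at the shares of all genes (11.0% higher and 6.61% lower). Cholesterol synthesis has the largest higher share with 16 of 21 genes and naive T cell surface genes the largest lower share with 11 of 15. The latter list also holds genes whose products are not at the surface.

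Adhesion and T cell receptor genes changed in part. Of 29 integrin genes 6 were higher and 4 lower, 3 higher without NKT-like replicate 3 or 4 or naive replicate 1, and 1 without naive replicate 2. Itgav, the alpha chain of vitronectin receptors, was at 10.61, 11.21, 11.42, 11.23 and 11.07 in the cultures against 7.73 and 7.68 (10.6-fold, q = 3.98e-06), with probe sets down to 0.756-fold. Itga4 and Itga6 fell 8.89- and 7.04-fold. Itgae, which binds E-cadherin, was at 6.27 to 6.83 against 8.89 and 8.27 (4.29-fold lower, q = 1.13e-05). Of 20 genes of the T cell receptor complex and its signalling 2 were higher and 3 lower, beside 11.0% and 6.61% of all genes. Sh2d2a, a T cell adaptor, rose 4.4-fold and Trat1, a receptor-stabilizing protein, fell 2.28-fold. Without naive replicate 1 or NKT-like replicate 1, 2, 4 or 5 the lower ones numbered 1, and without naive replicate 2 the higher ones numbered 1.

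The remaining lists held few calls, and most of those were lost without single arrays. Of 8 GIMAP GTPases Gimap8 was lower (3.11-fold, q = 0.00113, and 0.0315 without naive replicate 2). Of 13 genes of MHC class I presentation 2 were higher, Psmb8 and Calr, and 1 lower, H2-D1 (3.35-fold, q = 0.00526, and 0.0511 and 0.0483 without naive replicates 1 and 2). Calr kept its call without each array in turn. Psmb8 lost it without naive replicate 1 or 2 or NKT-like replicate 1, 3 or 5, and H2-D1 also without NKT-like replicate 4. Among 23 redox genes 6 were higher and 2 lower, 2 and 1 without naive replicate 1 and 3 and 0 without naive replicate 2. Gsr, glutathione reductase, rose 3.1-fold (q = 0.000279) and kept its call without each array in turn. The lower count was 1 without NKT-like replicate 1, 2 or 5. Of 15 heat shock chaperones 3 were higher and 2 lower, none was called without naive replicate 2, and 1 or none was lower without naive replicate 1 or NKT-like replicate 1, 3 or 4. Of 18 genes of DNA methylation, Polycomb and TET enzymes 4 were higher and 3 lower, 2 and 5 after quantile normalization, 2 and 0 without naive replicate 1, and 1 and 1 without naive replicate 2. Without NKT-like replicate 1 or 4 the higher ones numbered 2. Uhrf1, which brings Dnmt1 to copied DNA, was at 8.82 to 9.48 in the cultures against 7.40 and 7.59 (3.0-fold, q = 0.000179) and kept its call without each array in turn.

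The 5 cultures were not alike. The 10 genes with the widest spread among them, at a mean level of at least 8, included receptors and a chemokine of NK cells. Klra5, a Ly49 receptor, was at 11.83, 12.05, 8.17, 7.32 and 11.93 in cultures 1 to 5 and at 6.37 and 6.69 in naive cells. Klrc1 (NKG2A) was at 10.92, 11.43, 8.46, 7.63 and 10.76 against 7.05 and 6.63. Cultures 1, 2 and 5 were high and cultures 3 and 4 low for both, and probes of Ly49 and NKG2 receptors may bind relatives of their targets. Klrk1 (NKG2D) was at 11.12, 11.08, 9.13, 8.15 and 11.38 against 7.85 and 7.30, and Klrd1 (CD94), the partner of NKG2A, at 12.14, 12.50, 10.21, 10.07 and 11.99 against 11.35 and 11.45. Cultures 3 and 4 were again the lowest, and for Klrd1 they lay below both naive samples. Klrk1 and Klrd1 were added to this account after their values were seen. Xcl1, a chemokine of NK and CD8+ cells, was at 7.79, 9.89, 6.44, 6.44 and 10.91 against 7.06 and 6.60, with cultures 3 and 4 below naive cells. The opposite order held for Il24, a cytokine of the IL-10 family, at 8.17, 7.88, 11.86, 11.11 and 8.12 against 7.05 and 6.90. Maf, a factor known to drive Il10, was at 8.56, 8.72, 11.27, 10.98 and 7.16 against 5.98 and 6.01. Cultures 3 and 4 were the highest for both, as they were for Il10 itself. Fos was at 7.87, 9.61, 11.52, 10.55 and 7.46 against 7.77 and 7.59, and Ccn3, a matricellular protein, at 7.86, 7.12, 10.65, 8.79 and 6.39 against 4.70 and 4.82. These were also highest in cultures 3 and 4. Ccl9, a chemokine, was at 7.33, 10.01, 7.28, 9.41 and 11.30 against 5.61 and 5.51, and Penk, the enkephalin precursor, at 7.37, 9.35, 9.65, 9.79 and 11.82 against 6.23 and 6.47. Both were highest in culture 5, and Ifng, given above, completes the 10. The labels name no difference between the cultures, and no pair or set of cultures was tested against another.

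**Figure D5:**
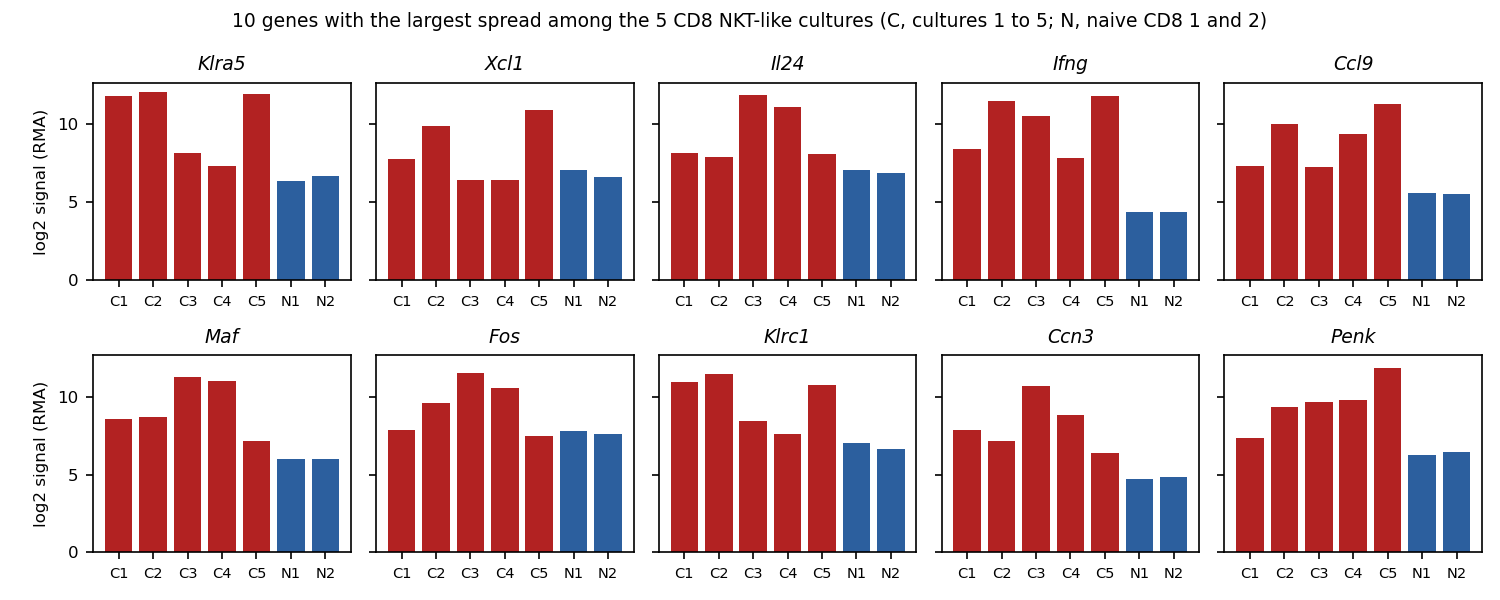
Log2 signal of the 10 genes with the largest SD over the 5 CD8 NKT-like cultures, with cultures C1 to C5 and naive samples N1 and N2. Klra5, Xcl1 and Klrc1 are lowest in cultures 3 and 4, where Il24, Maf, Fos and Ccn3 are highest.

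The 2 naive samples differed as well, by at least 2-fold in 701 probe sets. The 10 genes furthest apart, at a mean of at least 8, were all higher in naive replicate 1. Cd8b1, the CD8 beta chain, was at 10.60, 11.56, 11.91, 11.89 and 12.09 in the cultures and at 12.72 and 10.71 in naive replicates 1 and 2, so 4 of the 5 cultures lay between the naive samples. Coro1a, an actin regulator of lymphocytes, was at 12.84 to 13.70 against 13.23 and 11.09, and Fermt3, an integrin activator, at 9.95 to 11.38 against 9.30 and 6.84. Mrtfa, Nsa2, Tecr and Als2cl were 1.96 to 2.23 log2 units apart. None of these 7 passed without each array in turn. Ccr7 and a pair of antibody light chain genes, Igkv8-30 among them, complete the 10, and for these both naive samples were above all cultures.

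Set against the other 2 groups in the same fit, NKT-like cells had 220 genes (1.21%) above cultured CD4+ cells and 328 (1.8%) below. These comparisons share the NKT-like arrays with the one above. Ifitm1 was 12.7-fold above cultured CD4+ cells (q = 8.76e-06) and 61.1-fold above activated CD8+ cells (q = 1.39e-06). Gzmd was 30.7- and 696-fold higher, P2ry14 9.44- and 57.8-fold, Mycn 9.35- and 18.7-fold and Fcer1g 18.2- and 18.9-fold, each called in both comparisons. Without cultured CD4+ replicate 1 Gzmd was 16.2-fold above cultured CD4+ cells, and these 5 genes kept both calls without any one of the cultured CD4+ or activated CD8+ arrays. Without cultured CD4+ replicates 1, 2 and 3 in turn, 148, 110 and 112 genes were above cultured CD4+ cells and 322, 170 and 166 below. Cd24a and Btla were lower than in both other groups, at 0.0383 and 0.0407 times their levels for Cd24a (q = 9.04e-05 and 0.000239) and at 0.0945 and 0.111 times for Btla (q = 5.11e-06 and 2.42e-05). Il2ra was not called against cultured CD4+ cells (0.722-fold, q = 0.325) or activated CD8+ cells (1.72-fold, q = 0.0658), and neither was Bhlhe40 (1.02-fold, q = 0.862, and 1.36-fold, q = 0.281). Gzmb measured 14.34 ± 0.03 in NKT-like cells, 13.55 ± 0.73 in cultured CD4+ cells and 14.05 ± 0.01 in activated CD8+ cells. Of the 24 granule killing genes 8 were higher and 1 lower than in cultured CD4+ cells, and of the 21 cholesterol genes none was higher and 2 were lower. Without cultured CD4+ replicate 2 or 3 no granule killing gene and 1 cholesterol gene were lower.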

How the data were processed

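The deposited values are log2 signals that the authors computed with RMA from Affymetrix mouse arrays, 1 array per sample. No source read here names the version of the RMA software, and arrays carry no read depth. The deposited arrays do not share 1 distribution, with medians of 6.23 to 6.42 and 95th percentiles of 9.94 to 10.53, and a shift shared by most genes can be reduced by this scaling. Groups were taken from the sample labels. All 45037 non-control probe sets were fitted in limma 3.58.1 (R 4.3.3) with 4 groups over the 12 arrays and a moderated variance, and Storey q-values were computed over all of them. A symbol was given only where the annotation named 1 gene, for 34945 probe sets, while 932 had several and 9160 none. Probe sets of a kind that may bind related sequences were used only where a gene had no other. Among the remaining ones, the brightest on average over the 12 arrays was used. Of 368 genes that kept their call and had several probe sets, 276 had all of them on 1 side. The fit was also run on simulated data with independent normal noise, in which 67, 67 and 66 of 45037 probe sets were changed 2-, 4- and 8-fold. It called 59.7%, 85.1% and 98.5% of them. Far fewer probe sets were changed there than were called in these data, which makes the q-value stricter. These shares are therefore not recovery rates of the comparison itself. Named genes were the 15 largest changes in each direction kept without each array in turn, up to 4 such members of each list in each direction or those with the smallest q, the 10 widest spreads among cultures and between naive samples, and marker genes. The members and lists were chosen with earlier results of these data known. Alternatives were other samples in the fit, adjustments, variance priors, weights, a filter on low values, normalizations, a replicate block, averaging a gene over its probe sets, and leaving out each array. Leaving out cultured CD4+ and activated CD8+ arrays, and marker sums without their leading gene, were added after seeing the data.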

Additional observations from a re-analysis of the deposited data

Results flagged for a closer look

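Of 176 genes checked for a highest or lowest NKT-like culture whose gap to the next was large against the range of all 5, 13 had one. Chance alone flags about 1 group in 20. Culture 1 was the lowest for AA467197 (10.16), Bcl2l1 (9.26), Esm1 (8.60), Gpx8 (7.31) and Rgs1 (9.18). Culture 4 was the lowest for Actg1 (14.06), Car1 (6.10) and Slc43a1 (5.86). The range was itself small for Actg1, 14.06 to 14.19, and for Car1, 6.10 to 6.23. Culture 2 was the high one for Fasl (11.57) and Igkv8-30 (5.82) and the low one for Gzmn (4.66). Culture 3 was low for Tubb6 (9.59) and culture 5 for Scd2 (11.82). The cause was not tested.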

How the results depend on the processing

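The 152 called genes named above kept their direction under every alternative. Most of them were chosen for keeping their call without each of the 7 arrays in turn, so their stability in those fits follows from the choice. Of the 152 genes, 117 kept their call wherever all arrays were used, and the replicate block, with 35, took the most calls. Leaving out naive replicate 2 took 28 calls and naive replicate 1 took 19, against 4 to 10 for each culture. Over single arrays left out, probe sets higher by at least 2-fold numbered 651 to 2450 and lower ones 699 to 1121, beside 2512 and 1091 with all arrays. Over the 37 gene lists 313 genes were higher and 80 lower, with 111 to 309 and 40 to 77 when an array was left out. The lowest counts came without naive replicate 2, except the 40 lower list genes, which came without naive replicate 1. A threshold of 0.05 gave 129 lower list genes. With the replicate number as a block 623 probe sets were higher and 512 lower, and 116 and 39 list genes. The labels do not say whether samples of the same number shared a mouse, litter or day. Correlations of the deviations of same-numbered NKT-like and naive samples were -0.195 and 0.132. With 2 naive samples the deviations of 1 mirror those of the other, so these values can neither show nor exclude a pairing. All other alternatives, namely the 7 arrays alone, Benjamini-Hochberg adjustment, another variance prior, array weights, a filter on low values, the 3 normalizations and the mean of probe sets, kept those totals within 1.5 times. Over all genes, 1996 were higher and 1203 lower, and 409 to 1844 and 317 to 971 without single arrays, fewest without naive replicate 2. The 7 arrays alone gave 2297 lower genes, Benjamini-Hochberg adjustment 735 and median centring 757, a threshold of 0.05 gave 3585 higher and 3160 lower, and the replicate block 383 and 220. Chosen after seeing the data, single cultured CD4+ or activated CD8+ arrays left out gave 110 to 245 genes above and 166 to 386 below cultured CD4+ cells, beside 220 and 328. Single lists moved more, 24 of 96 counts by over 1.5 times under cyclic loess and 59 without naive replicate 2. The 2 naive samples limit every p-value, and the signal of genes near background limits their folds.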
